A study of Arabidopsis thaliana with 24 samples.

Results

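AT3G25610 and AT5G52760 are 2 Arabidopsis genes that stood among those with the largest rises after spraying with either of 2 synthetic defence elicitors. AT3G25610, also known as ALA10, encodes a P-type ATPase of the P4 family, and AT5G52760 encodes a small protein with a heavy-metal-associated domain. Each was read by the 1 probe set whose single annotated gene it is, out of 22746 non-control probe sets, of which 13648 were bright enough to be tested. The genes were chosen by their rise with both elicitors, which was read here as the rise in Col-0 at 48 h. The rule for the choice named no time. On this reading, which the later passages follow, the 48 h changes are descriptions, without a test. So is every comparison that uses the chosen arrays and the same changes. The tests below are of changes that the choice, so read, did not use. They cover both elicitors at 6 d, against mock and against each other, and DCA in npr1-3. If values at 6 d also entered the choice, the tests at 6 d are not independent of it.

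Transcripts were measured in RNA of the aerial parts of soil-grown plants on 24 Affymetrix ATH1 arrays, 3 for each of 8 groups. Plants 2 weeks old were sprayed with DCA, which is 3,5-dichloroanthranilic acid, with INA, which is 2,6-dichloroisonicotinic acid, both at 100 µM, or with a mock solution of 0.002% DMSO in water. The accession Col-0 received all 3 treatments and was harvested after 48 h or after 6 d. The npr1-3 mutant received DCA or mock and was harvested after 48 h; it carries a mutant allele of NPR1, a coactivator of salicylic acid responses. The labels call the 3 samples of a group independent biological replicates. They do not say how many plants made up a sample, and whole aerial tissue was taken, so a change in RNA per cell cannot be told apart from a change in the number of cells that carry it.

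P4-type ATPases are flippases: they use ATP to move phospholipids from one leaflet of a membrane to the other and so keep the leaflets unlike. In Arabidopsis they are the aminophospholipid ATPases, ALA1 to ALA12, and they work as complexes with a beta subunit of the ALIS family, which they need to leave the endoplasmic reticulum. Heavy-metal-associated domains are short folds that bind copper, zinc or other metal ions through a pair of cysteines in many members. In plants they occur in copper chaperones, in metal-pumping ATPases and in the large family of heavy-metal-associated isoprenylated plant proteins (HIPPs). DCA and INA are chlorinated aromatic acids that induce defence genes, and INA has long been used as a functional analogue of salicylic acid.

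The authors had scaled the 24 arrays to 1 trimmed mean signal, 500.1, and the median signal of an array lay between 115.1 and 148.4. With 3 arrays per group, a 95% interval extended by 0.59 on either side of a log2 change at the median probe set. In 6 of the 8 groups replicate 1 and replicate 2 differed by over 2-fold at 15.6% to 20.4% of the tested probe sets. In Col-0 with DCA at 48 h this share was 0.901%. Of the tissue markers, RCA, the Rubisco activase of green tissue, had signals of 17433 to 37164, and the root hair gene EXPA7 had signals of 8.89 to 79.8. PYK10, a beta-glucosidase also listed as a root marker, was bright, with signals of 2346 to 8896, so the 2 root markers read here differed. Of the listed markers, 1 of 9 for green tissue, 2 of 6 for root, 1 of 3 for guard cells and 0 of 3 for vasculature had a probe set that the annotation used here gives with that single gene.

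Col-0 after 48 h is, as the rule was read, the setting in which the genes were chosen. The signal of AT3G25610 was 22.7, 18.2 and 21.3 on the mock arrays of replicates 1, 2 and 3, and 337, 212 and 306 on the DCA arrays. On the INA arrays it was 269, 363 and 311. The means were 20.7 ± 2.30 for mock, 285 ± 65.3 for DCA and 314 ± 46.8 for INA (SD, n = 3 each). All 6 elicitor arrays lay above all 3 mock arrays, as 15.3% of tested probe sets did with DCA and 10.1% with INA. The mock signals stood between the 16.3 and 20.3 percentile of all non-control probe sets of their array, so the low end of this change was a dim signal.

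The signal of AT5G52760 was 305, 168 and 146 on the mock arrays, 2162, 1607 and 2133 on the DCA arrays, and 1240.5, 4399.5 and 3196 on the INA arrays. The means were 206 ± 85.9 for mock, 1967 ± 313 for DCA and 2945 ± 1594 for INA (SD, n = 3 each). Again no elicitor array reached down to the mock arrays. The INA arrays spread more widely than the others, with the highest 3.55 times the lowest, and replicate 1 was the low one.

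On the log2 scale AT3G25610 was higher with DCA at 48 h by 3.76 ± 0.61 (standard error), a 13.6-fold change, which was rank 1 of all rises. AT5G52760 was higher by 3.32 ± 0.63, or 9.96-fold, which was rank 4. With INA the changes were 3.92 ± 0.61, or 15.1-fold, and 3.73 ± 0.63, or 13.2-fold, ranks 8 and 10. These are the values that chose the genes, and they share the mock arrays. Among all tested probe sets 1.98% were called higher with DCA and 2.37% with INA, where a call is an adjusted p under 0.05 in limma. The size for AT3G25610 depends on its dim mock signal: with every signal under 64 set to 64, the log2 changes were 2.13 with DCA and 2.29 with INA.

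**Figure D1:**
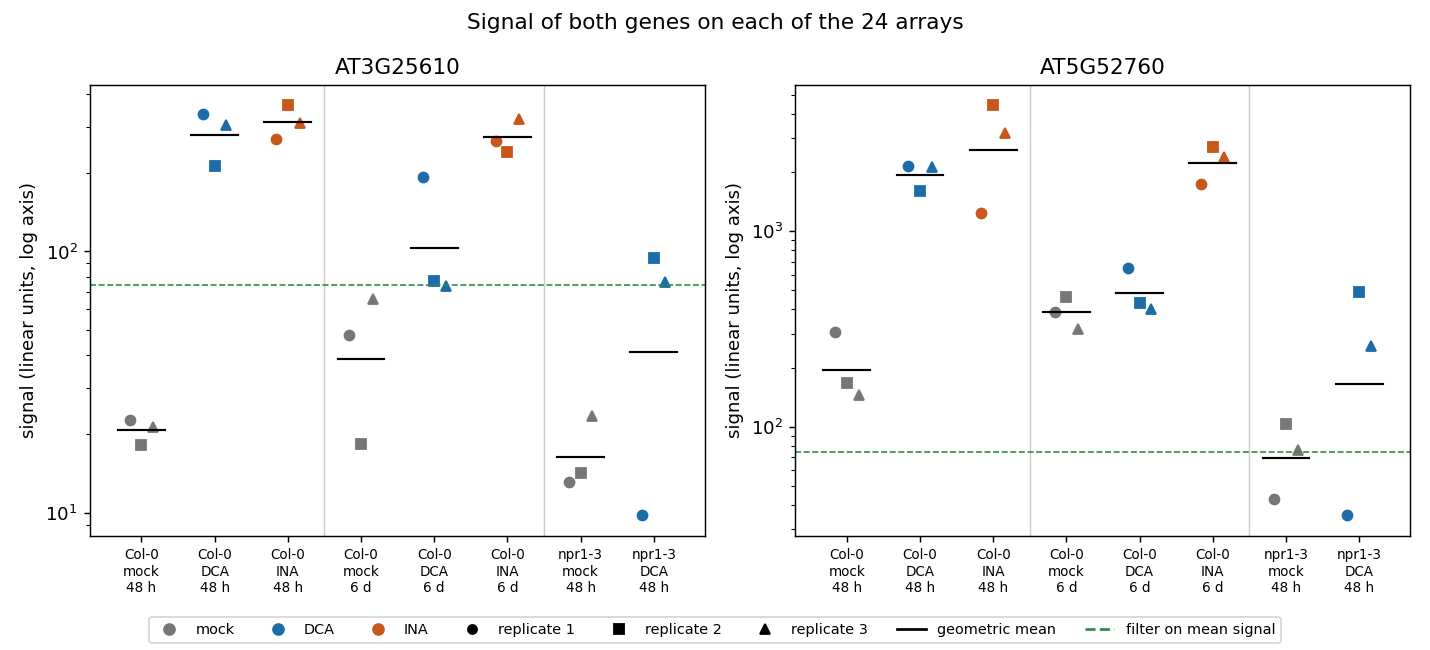
Signal of AT3G25610 (left) and AT5G52760 (right) in linear units on a log axis, for each of the 24 arrays by group; colour gives the treatment, the symbol gives the replicate, black lines are geometric means and the dashed line is the filter on the mean signal, 74.2. Both genes are high with DCA and INA in Col-0 at 48 h and with INA at 6 d, and replicate 1 of npr1-3 with DCA lies below the npr1-3 mock arrays of both genes.

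The first comparison outside the choice, as the rule was read, asks whether both genes were still higher with INA 6 d after spraying. The signal of AT3G25610 was 48.0, 18.4 and 65.5 on the mock arrays and 266, 240.2 and 322 on the INA arrays. AT5G52760 read 389, 463 and 318 on the mock arrays and 1742, 2703 and 2386 on the INA arrays. For each gene the lowest INA array lay above the highest mock array, a pattern that 12.8% of all tested probe sets showed in this direction.

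AT3G25610 was higher by 2.83 ± 0.61 on the log2 scale, a 7.09-fold rise (95% interval of the log2 change 1.56 to 4.09; limma, adjusted p = 0.0145). AT5G52760 was higher by 2.54 ± 0.63, a 5.81-fold rise (interval 1.22 to 3.86; limma, adjusted p = 0.0401). Among the tested probe sets 1.55% were called higher with INA at 6 d, and the genes took ranks 33 and 48 among all rises. Without INA replicate 3 the adjusted p of AT3G25610 was 0.0649, and without mock replicate 2, the lowest of its mock arrays, it was 0.123. AT5G52760 was called in 0 of the 6 fits that each left out 1 array, with adjusted p from 0.0617 to 0.134, although its change stayed between 2.40 and 2.72. AT3G25610 reached the filter, a mean signal of 74.2, only through its high groups, these INA arrays among them: its mean was 77.6 over all 24 arrays and 23.5 over the mock groups. With all 22746 probe sets fitted and no filter, the adjusted p in limma was 0.0240 for AT3G25610 and 0.0542 for AT5G52760. With dim signals set to a floor of 64 the change of AT3G25610 was 2.09 (limma, adjusted p = 9.46e-05). That floor sets mock replicates 1 and 2, at 48.0 and 18.4, to the same value. It so removes most of the mock spread by construction, and the smaller p is no firmer evidence of the rise.

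DCA at 6 d gave smaller changes. The signal of AT3G25610 on the DCA arrays was 192, 77.2 and 73.9, with a mean of 114 ± 67.3 against 44.0 ± 23.8 for mock (SD, n = 3 each). All 3 DCA arrays lay above all 3 mock arrays, which 7.32% of the tested probe sets did, but replicates 2 and 3 cleared the highest mock array, 65.5, by little. The log2 change was 1.42 ± 0.61 (interval 0.15 to 2.68; limma, adjusted p = 0.93), and 0.68 with a floor of 64.

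For AT5G52760 the DCA arrays at 6 d read 651, 429 and 402, with a mean of 494 ± 137 against 389.9 ± 72.8 for mock (SD, n = 3 each), and 2 of the 3 lay within the mock range. The log2 change was 0.32 ± 0.63 (interval -0.99 to 1.64; limma, adjusted p = 0.953). In this comparison 0% of all probe sets were called, 0 of 13648, with 444 at an unadjusted p under 0.05.

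**Figure D2:**
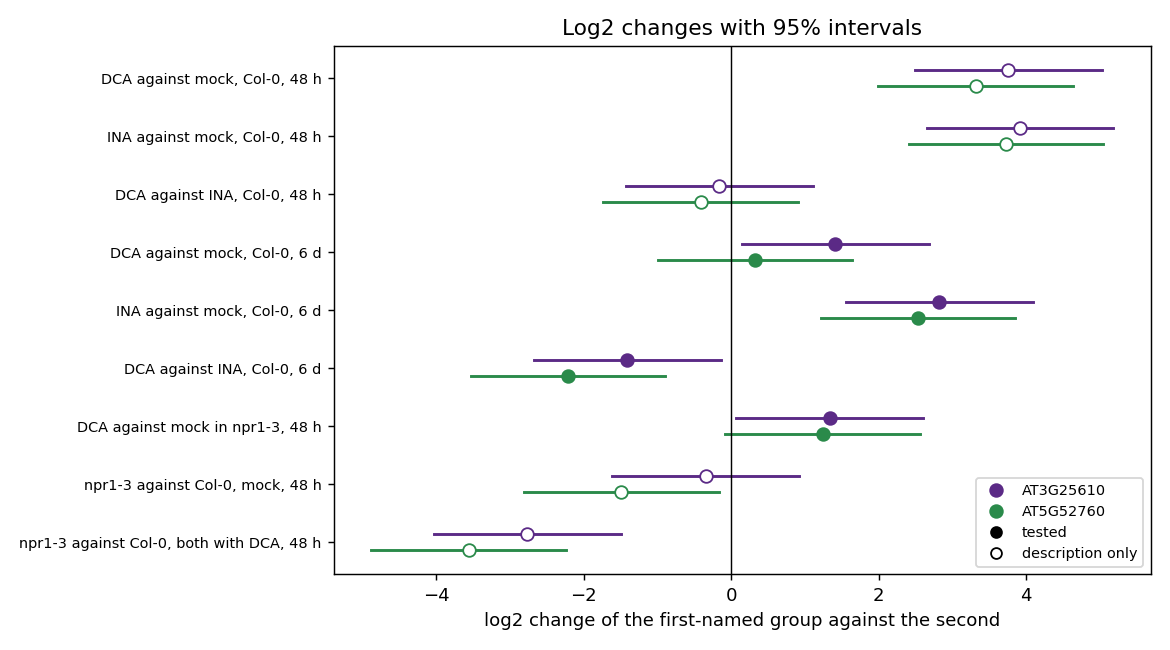
Log2 changes of AT3G25610 (purple) and AT5G52760 (green) in 9 comparisons, with 95% intervals from the fit of all 24 arrays; filled points were tested and open points are descriptions. With INA at 6 d the changes were 2.83 and 2.54, and with DCA at 6 d they were 1.42 and 0.32.

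DCA and INA are both dichlorinated aromatic acids; DCA is an aminobenzoic acid and INA a pyridinecarboxylic acid. They were sprayed at the same dose and harvested at the same times. The pair was compared at both times for both genes, and the 2 differences at 6 d were tested. At 48 h the arrays of DCA and INA overlapped for both genes. AT3G25610 differed by -0.16 on the log2 scale, DCA minus INA (interval -1.43 to 1.11), and AT5G52760 by -0.41 (interval -1.73 to 0.91). These intervals still allow differences of over 2-fold, and the values are a description, since the genes were chosen for a high value with both compounds at 48 h.

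At 6 d all 3 DCA arrays lay below all 3 INA arrays for both genes, as for 6.73% of tested probe sets. AT3G25610 was lower with DCA by 1.41 on the log2 scale, 2.66-fold, and the interval of the difference, -2.68 to -0.14, left out 0 (limma, adjusted p = 0.746). AT5G52760 had a difference of -2.21, 4.64-fold lower with DCA (interval -3.53 to -0.90; limma, adjusted p = 0.234). In this fit, where 0.205% of probe sets were called lower, neither was called.

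At 6 d the replicate numbers of DCA and INA went together: over all tested probe sets the deviations of same-numbered arrays from their group means correlated at r = 0.748, 0.569 and 0.460 for replicates 1, 2 and 3. With the replicate number as a block, and only these 6 arrays in the fit, both differences were called (limma, adjusted p = 0.0221 for AT3G25610 and 0.000252 for AT5G52760), as were 3.19% of all probe sets. The block in a fit of all 24 arrays gave adjusted p-values of 0.543 and 0.137. In each of the 3 pairs the DCA array was the lower for both genes, which the lack of overlap fixes under any pairing.

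The difference between DCA and INA at 6 d less that at 48 h was -1.25 for AT3G25610 (interval -3.04 to 0.54) and -1.80 for AT5G52760 (interval -3.67 to 0.06). This contrast was added after the values had been seen and draws on the arrays of the choice, so it is a description, and both intervals include 0.

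The mutant comparison asks what DCA does to both genes where NPR1 is impaired. In npr1-3 the signal of AT3G25610 was 13.1, 14.1 and 23.4 on the mock arrays and 9.77, 94.0 and 76.1 on the DCA arrays. AT5G52760 read 43.0, 104 and 76.3 with mock and 35.4, 490.7 and 259.6 with DCA. DCA replicates 2 and 3 stood above all 3 mock arrays for both genes, and DCA replicate 1 stood below all 3.

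The log2 changes with DCA in npr1-3 were 1.34 ± 0.61 for AT3G25610 (interval 0.07 to 2.61; limma, adjusted p = 0.597) and 1.24 ± 0.63 for AT5G52760 (interval -0.08 to 2.56; limma, adjusted p = 0.671). With a floor of 64 the change of AT3G25610 was 0.27. Of all tested probe sets 0.315% were called higher. Without DCA replicate 1 the changes were 2.38 and 2.35, 5.2-fold and 5.11-fold, with adjusted p-values of 0.0307 and 0.0322 in limma, when 0.337% of probe sets were called in either direction; the pair of remaining DCA arrays is then assumed to vary like the other groups. Over all tested probe sets DCA replicate 1 differed by over 2-fold from replicate 2 at 18.8% and from replicate 3 at 6.53%, and replicates 1 and 2 of npr1-3 mock differed so at 18.3%. The replicate numbers of these 2 groups also went together (r = 0.672, 0.655 and 0.117), and a block with only these 6 arrays gave adjusted p-values of 0.518 and 0.168.

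Compared with Col-0 under DCA at 48 h, the arrays that chose the genes, npr1-3 had lower values for both. The means were 59.96 ± 44.4 against 285 ± 65.3 for AT3G25610 and 262 ± 228 against 1967 ± 313 for AT5G52760 (SD, n = 3 each), and every npr1-3 array lay below every Col-0 array. On the log2 scale the differences were -2.76, or 6.79-fold lower, and -3.56, or 11.8-fold lower. They were -1.73 and -2.45 without npr1-3 DCA replicate 1. In this comparison 6.33% of all probe sets were called lower and 19% had such arrays without overlap.

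In mock plants AT3G25610 overlapped between the genotypes, at 16.9 ± 5.66 in npr1-3 against 20.7 ± 2.30 in Col-0 (SD, n = 3 each). AT5G52760 was 74.4 ± 30.4 in npr1-3 against 206 ± 85.9 in Col-0, with every npr1-3 array below every Col-0 array, as for 6.41% of probe sets, a log2 difference of -1.49 or 2.80-fold. The response to DCA in npr1-3 was smaller than that in Col-0 by 2.42 ± 0.86 on the log2 scale for AT3G25610 and by 2.07 ± 0.90 for AT5G52760; these differences were 1.38 and 0.96 without npr1-3 DCA replicate 1. As they contain the chosen response, none of them was tested.

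The levels fell into the same upper and lower sets of groups for both genes. Among the upper groups, DCA and INA at 48 h were those of the choice, so their place above Col-0 mock at 48 h was fixed by it. By geometric mean AT3G25610 was highest in Col-0 with INA at 48 h (312), followed by DCA at 48 h (279.6) and INA at 6 d (274). These neighbours overlapped. A gap of 1.41 on the log2 scale, without overlap, separated them from DCA at 6 d (103). Below it came npr1-3 with DCA (41.2), Col-0 mock at 6 d (38.7), Col-0 mock at 48 h (20.6) and npr1-3 mock (16.3), each overlapping the next.

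For AT5G52760 the upper groups were INA at 48 h (2593), INA at 6 d (2239.8) and DCA at 48 h (1949.7), which overlapped, and a gap of 2.01 without overlap followed. Next came DCA at 6 d (483) and Col-0 mock at 6 d (385), which overlapped, and after a gap of 0.98 without overlap Col-0 mock at 48 h (196), npr1-3 with DCA (165) and npr1-3 mock (69.8), each overlapping the next. The AT5G52760 signal of Col-0 mock plants was higher at 6 d than at 48 h, by 0.98 on the log2 scale; 18.2% of all probe sets were higher at 6 d without overlap. For AT3G25610 the same difference was 0.91 with overlapping arrays, and it was 0.01 with signals under 64 set to 64.

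The fitted response to each elicitor was smaller at 6 d than at 48 h, which is a description, since the 48 h changes chose the genes. The DCA response at 6 d minus that at 48 h was -2.35 for AT3G25610 and -2.99 for AT5G52760. The INA response at 6 d minus that at 48 h was -1.09 and -1.19.

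Across the 24 arrays the log2 signals of the 2 genes ran together, with Pearson's r = 0.931 and Spearman's rho = 0.924. The points share arrays and groups, and both genes were chosen for rising in the same groups, so no p is given. The deviations from the group means, which leave out the group levels, correlated at r = 0.717 and rho = 0.523. This r leans on npr1-3 with DCA, the group with the largest SD of log2 signals, 1.80 for AT3G25610 and 1.98 for AT5G52760. It was not computed without that group, so a shared variation within the other groups was not shown. Without npr1-3 DCA replicate 1 the overall values were r = 0.922 and rho = 0.914.

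**Figure D3:**
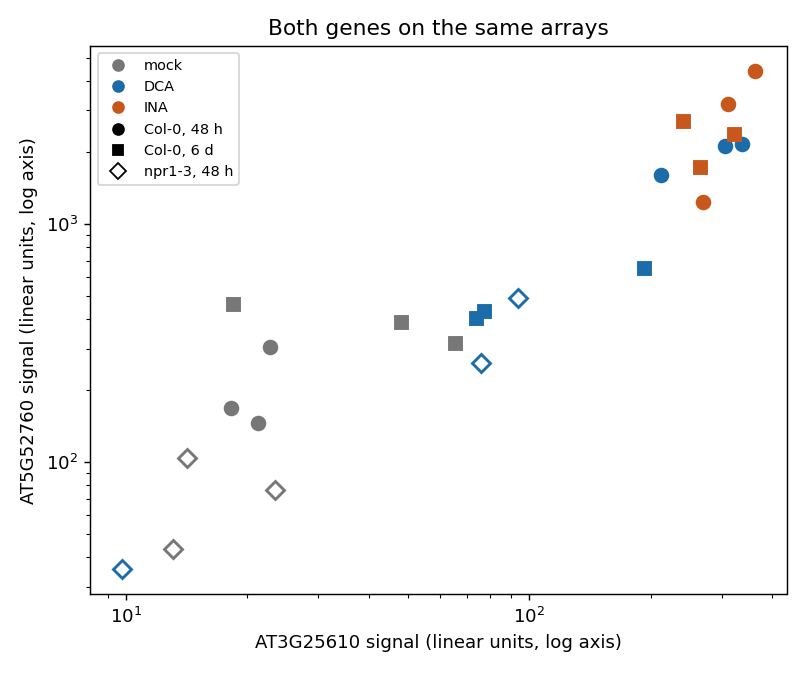
Signal of AT5G52760 against that of AT3G25610 on the same 24 arrays, both in linear units on log axes; colour gives the treatment and the symbol gives genotype and time. The Col-0 arrays with DCA or INA at 48 h and with INA at 6 d stand in the upper right, and the lowest point of both genes is npr1-3 with DCA, replicate 1.

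The genes most like each were taken as the 5 probe sets with 1 annotated gene and the highest r over the 24 log2 signals, out of 7317 compared, whose median r was -0.02. For AT3G25610 they were AT5G52760 (0.931), AT4G38550 (0.911), AT4G01700 (0.905), AT1G59960 (0.904) and AT1G13750 (0.896). For AT5G52760 they were AT5G46230 (0.945), AT5G44820 (0.934), AT3G25610 (0.931), AT1G59960 (0.923) and AT4G01700 (0.917). The annotation used here gives these loci without a name. The 95th percentile of r was 0.593 for AT3G25610 and 0.615 for AT5G52760.

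These genes were picked over the same 24 arrays, those of INA at 6 d included, so their values there are a description. AT1G13750 read 327, 526 and 743 on the INA arrays against 99.7, 103 and 138 on the mock arrays, in order of size, 4.48-fold higher. AT4G01700 was 3.04-fold, AT4G38550 2.1-fold and AT1G59960 1.69-fold higher with INA at 6 d. AT5G46230 and AT5G44820 were higher by 1.45 and 2.40 on the log2 scale.

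Other members of the P4 family place AT3G25610 among its relatives. For 8 of the 11 other ALA genes the annotation used here gives a probe set with that single gene, and 4 of these, ALA4, ALA5, ALA11 and ALA12, were bright enough to be tested. ALA6 to ALA9 stayed below the filter. The names ALA and ALIS follow the loci of these families.

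ALA11 (AT1G13210), a close sequence relative of AT3G25610, was the 1 other tested family member called with an elicitor. Its signal was 223, 506 and 310 on the Col-0 mock arrays at 48 h and 1073, 1024 and 1012 on the DCA arrays. All 3 DCA arrays lay above the mock arrays, as for 15.3% of tested probe sets. The rise was 1.66 ± 0.33 on the log2 scale, or 3.17-fold (limma, adjusted p = 0.00852). Without mock replicate 1 the adjusted p in limma was 0.0669. With INA at 48 h the arrays read 516, 937 and 619, a change of 1.03 ± 0.33 that was not called (limma, adjusted p = 0.125). The replicate numbers of INA and mock at 48 h went together (r = 0.764, 0.775 and 0.289), and with the block in a fit of these 6 arrays the adjusted p was 0.000443, when 15.3% of all probe sets were called.

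At 6 d ALA11 was 0.81 ± 0.33 higher with INA (limma, adjusted p = 0.255) and 0.32 ± 0.33 higher with DCA (limma, adjusted p = 0.93). In npr1-3 its signal was 232, 250.2 and 158 with mock and 289, 285 and 193 with DCA, which overlap, with a log2 change of 0.26 ± 0.33 (limma, adjusted p = 0.909). Under DCA at 48 h it was 4.12-fold lower in npr1-3 than in Col-0 (limma, adjusted p = 0.000772), where 12.7% of all probe sets were called. Its arrays did not overlap there, as for 19% of tested probe sets in this direction. The response to DCA differed between the genotypes by -1.40 ± 0.47 (limma, adjusted p = 0.961), so a smaller response in the mutant was not shown for ALA11.

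ALA4, ALA5 and ALA12 were called with neither elicitor. With DCA at 48 h the 4 tested relatives ranged from -0.14 to 1.66 with a median of 0.32, against 0.01 over all tested probe sets, and 1 was called higher, as were 1.98% of all probe sets. With INA at 48 h the range was 0.23 to 1.03, the median 0.44 and the median of all probe sets 0.01; with INA at 6 d it was 0.05 to 0.81, 0.33 and 0.00. In both of these 0 of 4 were called in limma, with 1 at an unadjusted p under 0.05, where 2.65% of all probe sets were called at 48 h and 1.83% at 6 d. With DCA at 6 d and with DCA in npr1-3 the medians were -0.07 and -0.08, against -0.04 and 0.08 over all probe sets, and 0 of 4 were called or had an unadjusted p under 0.05, where 0% and 0.322% of all probe sets were called in limma.

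Among the beta subunits, 3 of 5 ALIS genes were annotated so and 2 were tested. ALIS3 was bright, with mock signals of 1212, 971 and 1035 at 48 h, and INA signals of 2044, 1392 and 1569. The INA arrays lay above the mock arrays at both times, as for 10.1% of tested probe sets at 48 h and 12.8% at 6 d. The log2 changes were 0.62 ± 0.18 at 48 h (limma, adjusted p = 0.0739) and 0.60 ± 0.18 at 6 d (limma, adjusted p = 0.0964). With the block in a fit of the 6 arrays of 48 h, the adjusted p in limma was 0.00483, when 15.3% of all probe sets were called. ALIS3 overlapped between DCA and mock at 48 h, 0.22 ± 0.18 (limma, adjusted p = 0.594). ALIS2 had no called change in any comparison with an elicitor, and ALIS4, below the filter, had signals of 6.61 to 74.3.

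**Figure D4:**
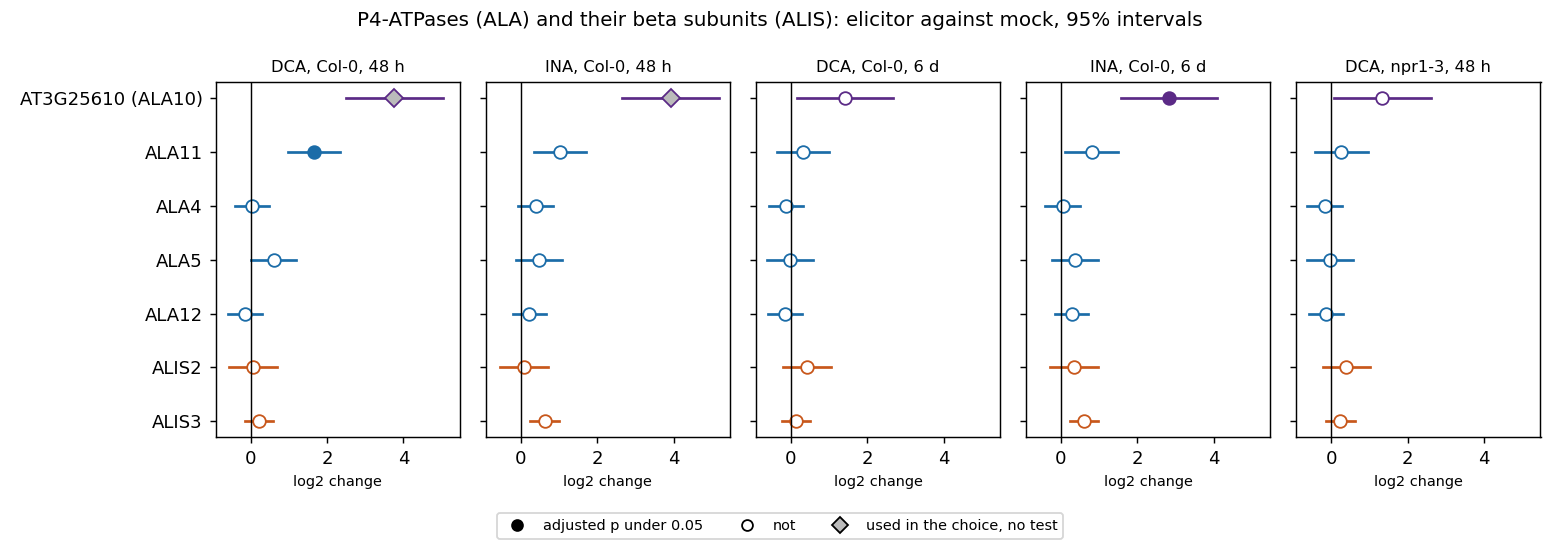
Log2 changes against mock with 95% intervals for AT3G25610 (ALA10), 4 other P4-ATPases and 2 beta subunits, in 5 comparisons; filled circles have an adjusted p under 0.05 in limma, open circles do not, and grey diamonds are the changes that chose AT3G25610. ALA11 with DCA in Col-0 at 48 h, at 1.66, is the filled circle among the relatives.

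AT5G52760 lies in a row of loci that encode similar metal-domain proteins. Of 9 listed neighbours 8 had a probe set annotated to that gene alone, and 1, AT5G52750, passed the filter. AT5G52750, the locus just before AT5G52760, read 849, 194 and 245 on the mock arrays at 48 h, 1505, 1334 and 1309.8 on the DCA arrays and 2896, 2202 and 2363 on the INA arrays. All elicitor arrays lay above all mock arrays, as for 15.3% of tested probe sets with DCA and 10.1% with INA. Mock replicate 1 was the highest of the mock arrays by far.

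With INA AT5G52750 rose 7.19-fold at 48 h (log2 change 2.85 ± 0.45; limma, adjusted p = 0.000569) and 6.57-fold at 6 d (2.72 ± 0.45; limma, adjusted p = 0.0018). At 6 d the INA arrays read 4713.5, 2479 and 2139 and the mock arrays 389, 491 and 461. The rise at 6 d was called in all 6 fits that left out 1 array. A fit to the 6 arrays of 48 h alone gave an adjusted p of 0.0732 for that time.

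With DCA at 48 h AT5G52750 was higher by 2.01 ± 0.45, or 4.02-fold (limma, adjusted p = 0.019). This call was kept in 1 of 6 fits that left out an array, the one without mock replicate 1; the adjusted p ranged from 0.00182 to 0.117, and a fit to the 6 arrays alone gave 0.101. At 6 d the DCA arrays read 1629, 619.7 and 710.4, all above mock, as for 7.32% of tested probe sets. The log2 change was 1.01 ± 0.45 (limma, adjusted p = 0.93). In npr1-3 the DCA arrays, at 381, 939.8 and 556, lay above the mock arrays, at 331, 209 and 307, as 6.94% of tested probe sets did, a change of 1.08 ± 0.45 (limma, adjusted p = 0.553). DCA was below INA at 6 d by 1.71 on the log2 scale (limma, adjusted p = 0.164). With the block in a fit of these 6 arrays the adjusted p in limma was 0.000131, when 3.19% of all probe sets were called.

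AT5G52740, a further step along the row, had a signal that separated INA from all else and was dim on the arrays without INA. This split was seen in the values first. The 6 INA arrays of both times ran from 146 to 236 with a median of 205, and the 18 other arrays from 6.42 to 57.3 with a median of 38.5. It stayed below the filter, and because the split was seen first its changes are a description. With INA it was 5.32-fold higher than mock at 48 h (log2 change 2.41 ± 0.55), and at 6 d the change was 2.26 ± 0.55. With DCA at 48 h it was 0.05 ± 0.55. DCA minus INA was -2.36 at 48 h and -2.27 at 6 d on the log2 scale. The locus on the other side, AT5G52770, had signals of 2.06 to 51.1.

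**Figure D5:**
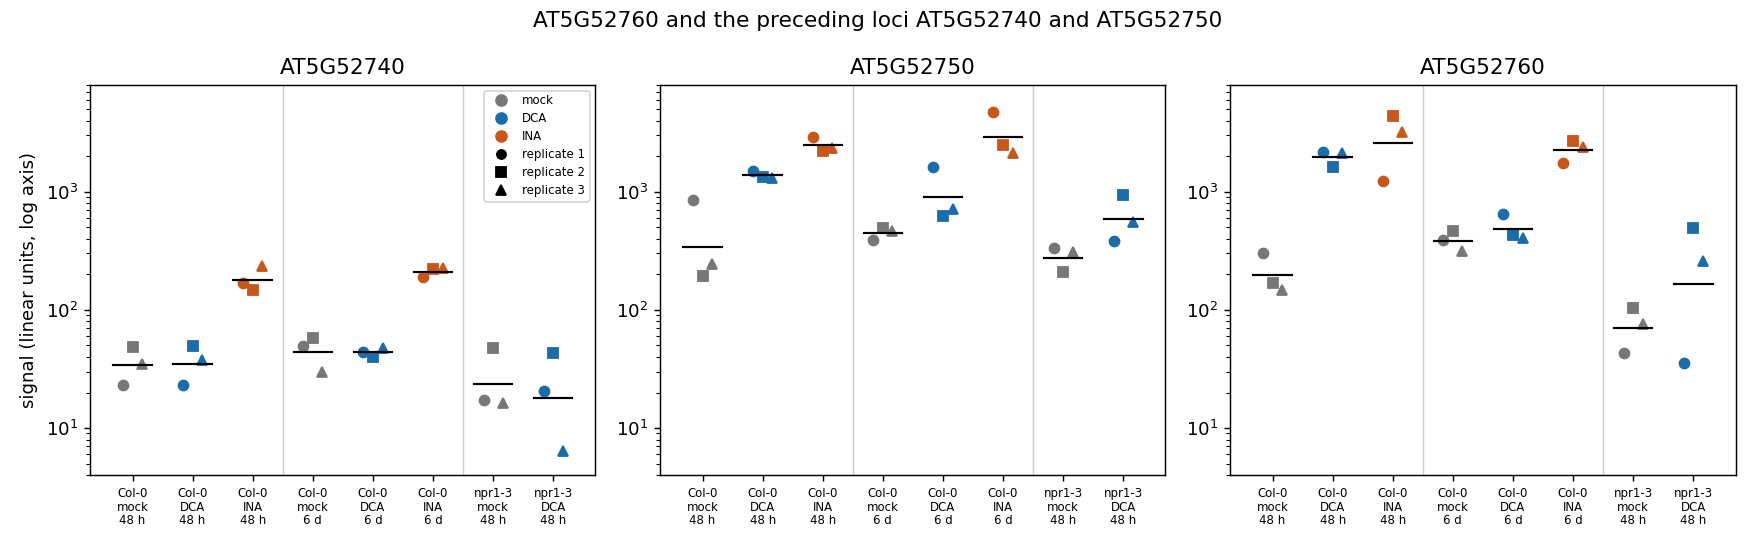
Signal of AT5G52740, AT5G52750 and AT5G52760 on each of the 24 arrays by group, in linear units on 1 common log axis; colour gives the treatment, the symbol gives the replicate and black lines are geometric means. AT5G52740 is above 146 on the 6 INA arrays and at most 57.3 on the others; levels cannot be compared between the panels, since each is another probe set.

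Copper chaperones and HIPPs form the wider family of AT5G52760. Of 47 other listed members 24 had a probe set annotated to that gene alone and 16 were tested. With DCA at 48 h 0 of 16 were called in limma, 5 had an unadjusted p under 0.05, and their median change was -0.23 against 0.01 over all tested probe sets. Of all 13648, 2.41% were called there and 2090 had an unadjusted p under 0.05. With INA at 48 h 1 was called higher, as were 2.37% of all, and the median was -0.17 against 0.01. At 6 d 0 of 16 were called with either elicitor, where 0% of all tested probe sets were called with DCA and 1.83% with INA. The medians were 0.12 with DCA and 0.09 with INA, against -0.04 and -0.002 over all. An unadjusted p under 0.05 in limma was found for 0 and 2 of the 16, against 444 and 1930 of all 13648. In npr1-3 0 of 16 were called with DCA, where 0.322% of all were, and the median was -0.11 against 0.08. There 0 of the 16 had an unadjusted p under 0.05 in limma, against 1075 of all.

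The member called with INA at 48 h was HIPP03 (AT5G60800), an isoprenylated metal-domain protein. Its INA arrays ran from 376 to 565 and its mock arrays from 141 to 176, a 2.94-fold rise (limma, adjusted p = 0.0356). The call was lost in 5 of 6 fits that left out an array, with adjusted p from 0.0485 to 0.161.

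Between npr1-3 and Col-0 under DCA, 5 of the 16 were called higher and 1 lower, against 6.36% and 6.33% of all tested probe sets. The lower one was AT1G51090, at 73.2 to 92.4 in npr1-3 and 374 to 546 in Col-0, a 5.66-fold difference (limma, adjusted p = 0.0207). That call was kept in 3 of 6 fits that left out an array, with adjusted p from 0.0409 to 0.0759, and in mock plants AT1G51090 was also 4.57-fold lower in npr1-3, with overlap (limma, adjusted p = 0.243). The higher ones included CCS, the copper chaperone of superoxide dismutase, at 3.17-fold (limma, adjusted p = 0.0461), AT5G24580 at 3.03-fold (limma, adjusted p = 0.0499) and AT1G01490 at 2.35-fold (limma, adjusted p = 0.0181). AT5G52760 itself was lower in npr1-3 in that comparison. The calls of the higher ones were not rechecked by leaving out arrays. In mock plants 12 of the 16 also had a higher value in npr1-3 and 0 were called in limma, where 0.0806% of all probe sets were. There 4 had an unadjusted p under 0.05 in either direction, as had 1481 of all 13648. For the difference in DCA response between the genotypes 0 of 16 had one, against 606 of all. A tie of the higher values to DCA was thus not shown. Of the listed heavy-metal, calcium and proton pumps of the P-type ATPase superfamily, 0 had a probe set that the annotation used here gives with that single gene, so they are not analysed here.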

How the data were processed

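The deposited values are signal intensities in linear units that the authors made with GCOS, per the submitters' processing notes; the sources used here give no version of it. After a floor of 1 the signals were put on the log2 scale. Of 22746 probe sets left after 64 controls, 13648 had a mean log2 signal at or above the 40th percentile (a signal of 74.2) and were tested. Over the mock groups the mean signal of AT3G25610 was 23.5, and over all 24 arrays it was 77.6, so it passed only through its raised groups; for AT5G52760 these were 174 and 512.5. No detection calls were used.

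With limma 3.58.1 (R 4.3.3), 1 model with a mean for each of the 8 groups covered the 24 arrays (eBayes with an intensity trend, 16 residual degrees of freedom), with two-sided tests and Benjamini-Hochberg adjustment over all tested probe sets of a comparison. A call is an adjusted p under 0.05. In simulated arrays with known changes, recovery grew with the size of the change and nearly all called changes had the right sign. Their noise was independent between arrays, so the simulation does not cover same-numbered arrays that deviate together. Figures were drawn with matplotlib 3.10.9.

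The annotation names 1 gene for 13513 probe sets, several for 503 and none here for 8730. It names no genome build, so no coordinates are given. The members and gene lists were chosen with earlier results of these data known. DCA against INA at 48 h had been planned as a test and is given as a description, since the choice used those arrays. Named are called members of each list (at most 4 by size, or the 2 brightest where none was called), the nearest P4 relatives, ALIS genes, tandem neighbours and the 5 most correlated genes.

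Alternatives were a floor of 16 or 64, other filters, quantile normalization, no trend, the replicate number as a block, a fit to the compared arrays alone and each array left out. Where same-numbered arrays of 2 groups deviated together, every r above 0.1, the blocked value is given where it changes a call. Such pairing comes from the data, since the labels give the numbers only. This held for DCA and mock in npr1-3, DCA and INA at 6 d and INA and mock at 48 h, not for the other tested pairs.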

Additional observations from a re-analysis of the deposited data

How the results depend on the processing

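Most values kept their direction and their side of the threshold. Leaving out 1 array at a time gave -0.29 to 0.04 for DCA against INA at 48 h in AT3G25610, which changed sign in 1 fit. With INA at 6 d it gave 2.29 to 3.21 for AT3G25610 (called in 4 of 6 fits) and 2.40 to 2.72 for AT5G52760 (0 of 6). DCA in npr1-3 ranged from 0.74 to 2.38 for AT3G25610 and from 0.46 to 2.35 for AT5G52760. Under DCA, npr1-3 against Col-0 ranged from -3.36 to -1.73 for AT3G25610 and from -4.35 to -2.45 for AT5G52760. The DCA response in npr1-3 minus that in Col-0 ranged from -3.02 to -1.38 and from -2.86 to -0.96. These ends come from leaving out npr1-3 DCA replicate 1 or 2.

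A floor of 64 changed AT3G25610: 2.13 and 2.29 for DCA and INA at 48 h, 0.68 and 2.09 at 6 d (INA still called), 0.27 for DCA in npr1-3, -1.86 for npr1-3 against Col-0 with DCA, 0.011 for mock at 6 d against 48 h, -1.45 and -0.20 for the DCA and INA responses at 6 d minus 48 h, and -1.41 for DCA against INA at 6 d, then called (adjusted p = 0.0156). By construction it raises the dim mock signals and narrows the spread of this gene that all tests in the fit share. Smaller p-values under this floor are therefore no firmer evidence. With no filter AT5G52760 with INA at 6 d stayed at 2.54 but was not called (adjusted p = 0.0542), with more probe sets tested. With a filter at the 60th percentile AT3G25610 was not tested.

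The replicate block in a fit to the compared arrays, chosen after seeing the data, called DCA against INA at 6 d (-1.41, adjusted p = 0.0221; -2.21, adjusted p = 0.000252). It called 195 probe sets for DCA in npr1-3, against 44 without it. The block in the fit of all arrays left INA at 6 d at 2.83 and 2.54 (adjusted p = 0.0107 and 0.0187) and changed no other call of either gene. It called 633 probe sets for INA at 6 d, against 250 without it; whether these numbers are real pairs is unknown, as their r was 0.02, 0.14 and 0.34.

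Without replicate 1 in any group, also chosen after seeing the data, DCA in npr1-3 was called (2.22, adjusted p = 0.0474; 2.00, adjusted p = 0.00644), as was DCA against INA at 6 d for AT5G52760 (-2.61, adjusted p = 0.00124). INA at 48 h was then 4.58 for AT5G52760, npr1-3 against Col-0 with DCA -1.59 and -2.37, and the DCA response in npr1-3 minus that in Col-0 -1.48 for AT3G25610. The cause was not tested. What limits these values is 3 arrays per group and the dim mock signal of AT3G25610.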
